A study of Mus musculus with 8 samples.

Results

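The chains that build collagens and laminins, the main structural proteins of fibrils and basement membranes, were followed here in the ventricles of mouse embryos. Members were all genes of the deposited table whose symbol has the form of a collagen chain (Col, a number, a and a number) or of a laminin chain (Lama, Lamb or Lamc and a digit) and that had at least 10 counts in at least 4 of the 8 samples. Of 53465 genes in the table, 55 carried such a symbol and 44 of them met the count limit. They were placed in 3 classes by the assembly they join: 18 basement-membrane chains (11 laminin chains, 5 collagen IV chains and the multiplexins *Col15a1* and *Col18a1*), 9 fibrillar chains and 17 other chains. The rule for members used no difference between genotypes, but it was set with earlier results of these data known. The control (WT) group and the mutant group (Nrg-1flox;Tie2-Cre, called mutant from here on) held 4 samples each, all of heart ventricles at embryonic day 9.5. In the mutant, the gene of neuregulin-1, a ligand that endocardium sends to the myocardium, was targeted with a Cre driver of endothelial cells, and the Tie2 promoter is also known to be active in precursors of blood cells. Whether the WT embryos carried the floxed allele or Cre, and whether a sample came from 1 embryo or from a pool, is not given in the sources used here, so p-values measure the spread between these samples. The comparison of the groups addresses how deletion of *Nrg1* in endothelial cells affects ventricular gene expression.

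As background, a collagen chain carries a repeat of glycine followed by a pair of other residues, and chains wind around each other into a rope-like helix. In fibrillar collagens the repeat is long and unbroken and the molecules pack into fibrils, whereas in collagen IV it is interrupted and the molecules join into a flexible net. Laminins are cross-shaped molecules of an alpha, a beta and a gamma chain, and their net, tied to that of collagen IV, makes the basement membrane. In the heart tube at this age the endocardium and the myocardium face each other across a matrix called cardiac jelly. Laminins and collagen IV are laid down along such cell layers, and fibrillar chains come mostly from mesenchymal cells.

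The difference between fibrillar and collagen IV chains can be read from their coding sequence in the GRCm38 assembly with the GENCODE M21 annotation. In the longest coding sequence of each gene, the longest unbroken run of triplets that start with a glycine codon was 217 to 344 triplets in the 9 fibrillar chains and 40 to 66 triplets in the 5 collagen IV chains, whose repeat fell into 22 to 27 runs. Fibrillar chains had 21 to 33 exons of exactly 54 bases, which is 6 triplets of 3 codons, against 1 to 3 such exons in collagen IV chains and none in the 11 laminin chains. Such exons were not particular to fibrillar chains, since the 7 FACIT chains, which decorate fibrils, had 4 to 28, with 28 in *Col22a1*. The longest run in a FACIT chain was 113 triplets. The first exon of 54 bases with a glycine codon at the head of each triplet is shown for the 4 chains *Col1a1* (exon 8, chr11:94939904-94939957, plus strand), *Col2a1* (exon 6, chr15:97998545-97998598, minus strand), *Col3a1* (exon 6, chr1:45325360-45325413, plus strand) and *Col5a1* (exon 15, chr2:27965251-27965304, plus strand), because the long unbroken repeat sets fibrillar chains apart from collagen IV and the levels of these chains are given further on, with the glycine codons of the repeat in capitals.
Col1a1: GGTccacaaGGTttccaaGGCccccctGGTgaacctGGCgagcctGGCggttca
Col2a1: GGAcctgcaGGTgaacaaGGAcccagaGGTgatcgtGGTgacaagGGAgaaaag
Col3a1: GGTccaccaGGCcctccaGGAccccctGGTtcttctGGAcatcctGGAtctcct
Col5a1: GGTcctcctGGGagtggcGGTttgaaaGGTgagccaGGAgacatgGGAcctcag

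The collagen IV pair *Col4a1* and *Col4a2* is shown at the first exon that holds an interruption with repeat on both sides, exon 21 of *Col4a1* (chr8:11235123-11235218, minus strand, 96 bases) and exon 20 of *Col4a2* (chr8:11415946-11416047, plus strand, 102 bases), with glycine codons of the repeat in capitals. The break adds 2 codons between successive glycine triplets in *Col4a1* and 4 codons in *Col4a2*, and it stands out as the longest lower-case stretch.
Col4a1: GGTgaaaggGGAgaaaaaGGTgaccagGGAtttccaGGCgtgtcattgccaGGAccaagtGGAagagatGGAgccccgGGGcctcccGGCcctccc
Col4a2: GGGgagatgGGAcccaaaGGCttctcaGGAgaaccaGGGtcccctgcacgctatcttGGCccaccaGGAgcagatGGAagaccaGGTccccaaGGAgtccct
Transcripts of the 44 chains were longer than those of the genes tested as a whole, with a median of 5827.5 bases against 2924.5 bases, and richer in G and C, with a median of 56.0% against 50.3%.

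Libraries held between 11852506 and 14360427 counts in WT and between 12430483 and 14223984 in the mutant. *Nrg1* counts were 156, 131, 121 and 173 in WT and 61, 59, 71 and 72 in the mutant, a log2 fold change of -1.07 (SE 0.141, adjusted p = 0.00268, edgeR's quasi-likelihood F test, adjusted after Benjamini and Hochberg), without overlap. All 12 cardiomyocyte markers were detected, and their summed level was 36067 to 38302 CPM (counts scaled to the size and composition of the library) in WT and 34241 to 37391 CPM in the mutant. The groups differed in blood: all 10 erythroid markers passed the test as higher, with sums of 6572 to 7950 CPM in WT and 19430 to 67806 CPM in the mutant. Endocardial and endothelial markers summed to 1205 to 1288 CPM in WT and 1073 to 1157 CPM in the mutant (1 of 12 passed, lower), cushion mesenchyme markers to 520.3 to 526 and 372 to 460.0 CPM (1 of 8, lower), and epicardial markers to 312 to 366 and 421 to 647 CPM (2 of 10 higher, 1 lower). The cushion marker that passed, *Tbx20*, which myocardium also expresses, made up 369.6 to 386 CPM of its sum in WT and 268 to 324 CPM in the mutant, and the summed level of the other 7 cushion markers overlapped between the groups, at 134 to 155 and 104 to 139 CPM. Outflow markers summed to 337 to 362 CPM in WT and 228 to 265 CPM in the mutant (5 of 7 lower), and hypoxia and stress genes to 4260.1 to 4998 and 4874 to 6765 CPM (1 of 12 higher, *Slc2a1*, with 11 positive log2 fold changes). No listed marker of these cell types was at 0 in all samples. Mutant replicate 1 stood apart, with the highest sums of erythroid, megakaryocyte and hypoxia and stress markers, and results that turn on it are also given without it. The part of these differences in the results on the chains was not tested, and in bulk tissue fewer cells of a type and less RNA per cell cannot be told apart.

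Of the 44 chains, 2 passed the test between genotypes, both of them laminin alpha chains: *Lama4* fell and *Lama5* rose in the mutant. Across all 14451 genes tested, 8.62% passed (5.11% higher and 3.5% lower), so the 4.55% of chains that passed was no larger a share than among genes as a whole. The levels of the groups did not overlap, with every mutant sample above every WT sample, for 1 chain (*Lama5*), where 9.51% of all genes did so. Every mutant sample lay below every WT sample for 3 chains (*Lama4*, *Lamb2* and *Col13a1*), where 9.45% of all genes did so. An unadjusted p under 0.05 was reached by 11 chains, or 25% of them, against 25% of all genes tested. The median log2 fold change was -0.05 over the 44 chains and -0.0013 over all genes tested, and 19 chains had a positive and 25 a negative value. Without mutant replicate 1 the median over the chains was 0.0057, and without WT replicate 2 it was 0.0063, so the sign turned in both. Chains took 0.579% ± 0.0335 of all counts in WT and 0.522% ± 0.0351 in the mutant (SD, n = 4). These are shares of counts before scaling, of which hemoglobin genes took 0.722% ± 0.0609 in WT and 3.97% ± 1.77 in the mutant (SD, n = 4). The part of hemoglobin in the lower share of the chains was not tested. In the fit without mutant replicate 1, 17.2% of the genes tested and 6 chains passed, namely *Lama4*, *Lama5*, *Lamb2*, *Col4a1*, *Col12a1* and *Col13a1*, of which *Lama5* alone was higher.

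**Figure D1:**
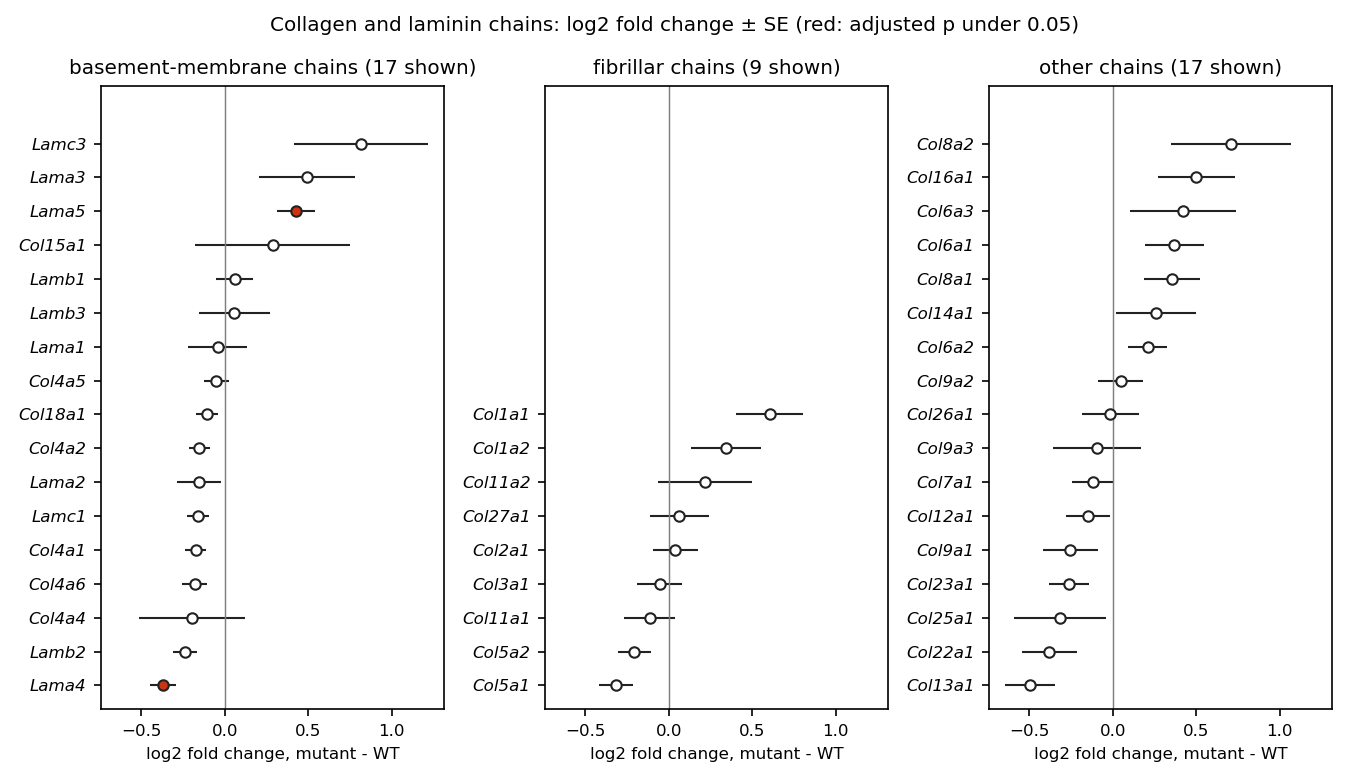
Log2 fold change of mutant against WT (horizontal axis) with its standard error for the chains reported here, in panels of basement-membrane, fibrillar and other chains, with adjusted p under 0.05 in red. *Lama4* at -0.37 and *Lama5* at 0.43 are in red, and larger values such as *Lamc3* at 0.82 have wide error bars.

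Among basement-membrane chains, 2 of 18 passed (11.1%, beside 8.62% of all genes tested), 1 in each direction. An unadjusted p under 0.05 was reached by 7 of the 18 (38.9%, beside 25% of all genes), among them 3 of the 5 collagen IV chains. DESeq2, which called 12.2% of all genes, called 3 of the class, *Lama4*, *Lama5* and *Lamb2*. The median log2 fold change of the class was -0.13, with 12 negative values, and -0.06 without mutant replicate 1. *Lama4* (ENSMUSG00000019846, chromosome 10 from 38965515 to 39110188, plus strand, 38 exons) encodes the laminin alpha chain best known from the basement membranes of vessels. Its level was 242, 255, 211 and 211 CPM in WT, in the order of replicates 1 to 4, and 183, 164, 175 and 190.5 CPM in the mutant. All mutant values were below all WT values, and the log2 fold change was -0.37 (SE 0.0782, adjusted p = 0.0196). *Lama5* (ENSMUSG00000015647, chromosome 2 from 180176373 to 180225859, minus strand, 79 exons) encodes the alpha chain of many epithelial and vascular basement membranes. Its level was 117, 127, 134 and 108 CPM in WT and 152, 202, 158 and 141 CPM in the mutant, so that all mutant values were above all WT values, and replicate 2 was the highest. The log2 fold change of *Lama5* was 0.43 (SE 0.114, adjusted p = 0.0462). Without mutant replicate 1 the values were -0.38 (adjusted p = 0.00951) for *Lama4* and 0.46 (adjusted p = 0.0203) for *Lama5*.

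Summed endocardial and endothelial markers were lower, and summed epicardial markers higher, in every mutant sample than in any WT sample, and their part in these 2 results was not tested. Both calls lay near the threshold. The call of *Lama4* was lost without WT replicate 1 (adjusted p = 0.0729), WT replicate 2 (0.0555) or mutant replicate 3 (0.0538), and with the replicate number as a block, alone (0.0679) or with an offset for GC content and length (0.0603), with adjusted p from 0.000525 to 0.0729 over the 18 alternatives. The call of *Lama5* was lost without WT replicate 1, 2, 3 or 4 (adjusted p = 0.133, 0.0917, 0.0756 and 0.134), without mutant replicate 3 (0.0809), with upper-quartile normalization (0.0556) and with an offset for GC content and length (0.0817, or 0.122 with the replicate block as well, both chosen after seeing the data), with adjusted p from 0.00557 to 0.134 over the 18 alternatives.

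Because *Lama5* was the chain that rose, the 250 bases before its RefSeq start on GRCm38.p6 (chr2:180225860-180226109, minus strand) are shown, with the GC box in capitals, a motif bound by factors of the Sp family and searched as GGGCGG and its complement CCGCCC. The window held 4 GC boxes that did not overlap each other. Of 32851 promoters of the same length in the RefSeq table, 32.7% held at least 1 GC box, and among the 34 promoters of the 30 chains found in that table, 58.8% did.
Lama5: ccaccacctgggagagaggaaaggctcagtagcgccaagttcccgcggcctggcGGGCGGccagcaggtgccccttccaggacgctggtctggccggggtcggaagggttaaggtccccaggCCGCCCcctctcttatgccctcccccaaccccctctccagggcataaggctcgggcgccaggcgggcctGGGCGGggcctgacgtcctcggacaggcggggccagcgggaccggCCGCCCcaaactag
A match is a description of the sequence and no sign of binding.

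The beta and gamma chains that join these alpha chains did not pass the test by edgeR, while DESeq2 called *Lamb2*. *Lamb1* (ENSMUSG00000002900, chromosome 12 from 31265234 to 31329644, plus strand, 33 exons), the beta chain of most embryonic laminins, was at 387, 388, 362 and 338 CPM in WT and 483, 372, 334 and 348 CPM in the mutant, where replicate 1 was the highest of all samples. Its log2 fold change was 0.06 (SE 0.110, adjusted p = 0.788), and -0.07 (adjusted p = 0.435) without mutant replicate 1. *Lamb2* (ENSMUSG00000052911, chromosome 9 from 108479736 to 108490530, plus strand, 33 exons), the beta chain known from the neuromuscular junction and the kidney filter, was at 110.4, 113, 113 and 110.4 CPM in WT and 83.6, 98.5, 105 and 90.9 CPM in the mutant. The *Lamb2* groups did not overlap, and the log2 fold change was -0.24 (SE 0.0721, adjusted p = 0.0677), or -0.19 (adjusted p = 0.0401) without mutant replicate 1 and -0.30 (adjusted p = 0.0430) without mutant replicate 3. *Lamc1* (ENSMUSG00000026478, chromosome 1 from 153218922 to 153332786, minus strand, 28 exons), the gamma chain of nearly all laminins, was at 509.7, 552, 459 and 457 CPM in WT and 444, 458, 432 and 434 CPM in the mutant, so that only mutant replicate 2 came above the lowest WT sample. Its log2 fold change was -0.16 (SE 0.0667, adjusted p = 0.167), or -0.11 (adjusted p = 0.347) without WT replicate 2, the highest sample. The laminin chains *Lama1*, *Lama2*, *Lama3*, *Lamb3* and *Lamc3* did not pass either, and their levels were between 0.329 and 30.3 CPM over all samples. Without mutant replicate 1 the log2 fold change was 0.08 for *Lama1*, 0.26 for *Lama3* and 0.02 for *Lamb3*, against -0.04, 0.49 and 0.06 with it. *Lamc3* had the highest fold change of any chain, 0.82 (SE 0.402, adjusted p = 0.241), at levels from 0.329 to 2.82 CPM, and was at 0.53 (adjusted p = 0.377) without WT replicate 3, the lowest sample.

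The net-forming collagen IV chains were all lower on average in the mutant, with log2 fold changes from -0.20 to -0.05, and none of the 5 passed. *Col4a1* (ENSMUSG00000031502, chromosome 8 from 11198423 to 11312826, minus strand, 52 exons), which joins *Col4a2* in the collagen IV molecule of nearly every basement membrane, was at 992, 1059, 938 and 887 CPM in WT and 903, 849, 819 and 859.9 CPM in the mutant. Its log2 fold change was -0.18 (SE 0.0624, adjusted p = 0.115), and it passed without mutant replicate 1 at -0.20 (adjusted p = 0.0339). *Col4a2* (ENSMUSG00000031503, chromosome 8 from 11312805 to 11449287, plus strand, 48 exons) was at 602, 642, 569.6 and 538 CPM in WT and 552, 524, 505 and 533 CPM in the mutant, with a log2 fold change of -0.15 (SE 0.0623, adjusted p = 0.163). The pair overlapped between groups in the same samples, since mutant replicate 1 and WT replicate 4 met. RefSeq places their starts 21 bases apart on opposite strands of chromosome 8, at 11312826 for *Col4a1* and 11312805 for *Col4a2*. *Col4a5* and *Col4a6*, the X-linked pair whose RefSeq starts lie 1343 bases apart, gave log2 fold changes of -0.05 (SE 0.0768, adjusted p = 0.731) and -0.18 (SE 0.0743, adjusted p = 0.164). *Col4a4*, a chain known from the mature kidney filter, reached at most 1.81 CPM. *Col18a1* (ENSMUSG00000001435, chromosome 10 from 77052178 to 77166548, minus strand, 41 exons), the multiplexin that carries endostatin, was at 623, 644, 581 and 568 CPM in WT and 498, 586, 572 and 588 CPM in the mutant, a log2 fold change of -0.11 (SE 0.0679, adjusted p = 0.369) with overlapping groups. *Col18a1* passed with an offset for GC content and length (adjusted p = 0.0148), and ran from -0.23 to -0.10 over the alternatives that kept all samples. Without mutant replicate 1 *Col18a1* was at -0.05 (adjusted p = 0.488), *Col4a4* at 0.02 (adjusted p = 0.966) and *Col4a5* at -0.02 (adjusted p = 0.874).

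**Figure D2:**
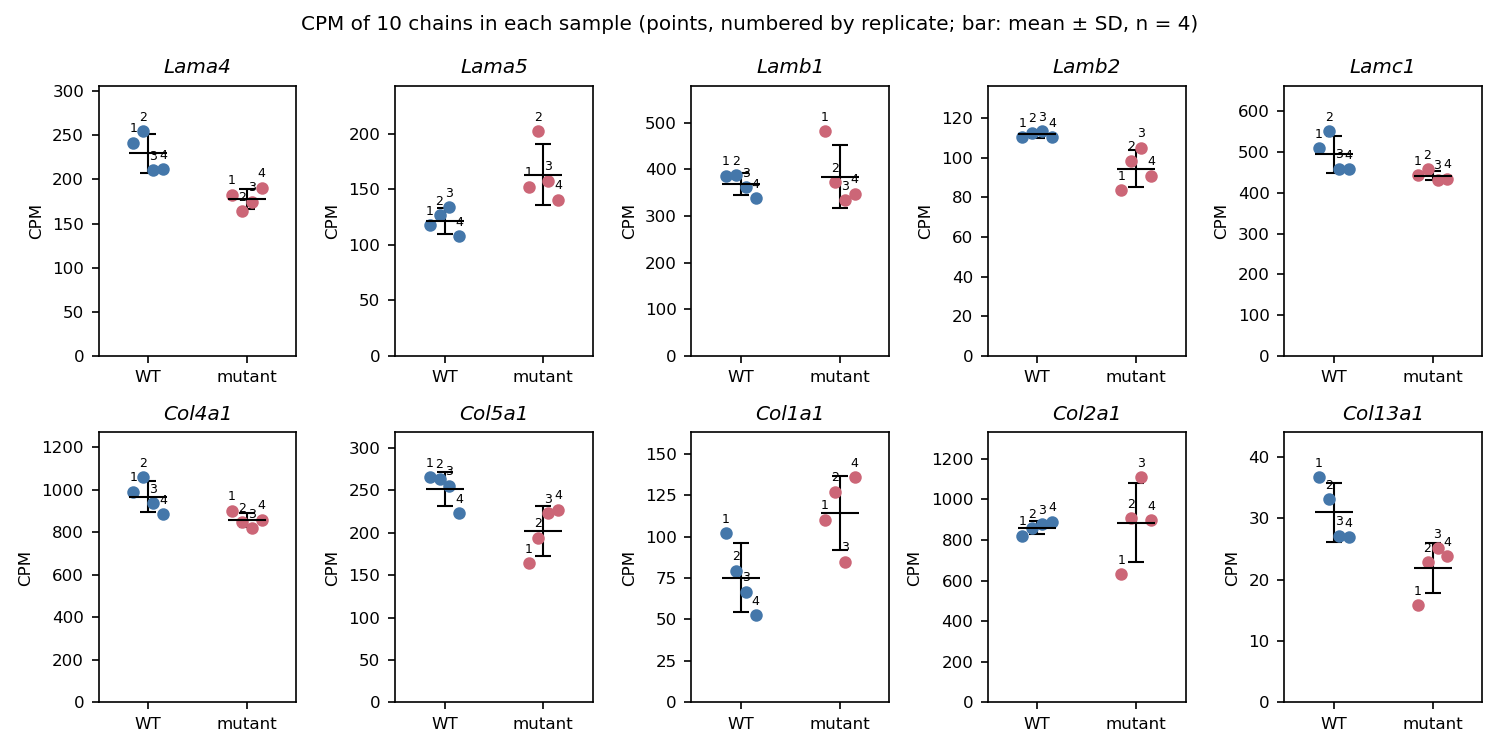
Level in CPM (vertical axis, from 0) of 10 chains in each WT (blue) and mutant (red) sample, numbered by replicate, with the mean and SD of 4 samples. For *Lama4*, *Lama5*, *Lamb2* and *Col13a1* the points of the groups do not overlap, and mutant replicate 1 is the lowest sample for *Col2a1*, at 632 CPM.

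No fibrillar chain passed the test (0 of 9 by edgeR, with 2 at an unadjusted p under 0.05 and 2 called by DESeq2, in both cases *Col1a1* and *Col5a1*, or 22.2% of the class, where an unadjusted p under 0.05 was reached by 25% of all genes and DESeq2 called 12.2%), and the median log2 fold change of the class was 0.04, or 0.17 without mutant replicate 1. *Col2a1* (ENSMUSG00000022483, chromosome 15 from 97975602 to 98004695, minus strand, 54 exons), the main collagen of cartilage, had the highest mean of all chains per length in each group, though with a wide spread in the mutant (174 ± 38.2 CPM per kb, SD, n = 4), and stood at 821, 857, 878 and 891 CPM in WT and 632, 906, 1108 and 896 CPM in the mutant. Mutant samples lay on both sides of WT, and the log2 fold change was 0.04 (SE 0.136, adjusted p = 0.890), or 0.17 (adjusted p = 0.128) without replicate 1. *Col3a1* (ENSMUSG00000026043, chromosome 1 from 45311538 to 45349706, plus strand, 51 exons), a collagen of vessel walls and skin, was at 257, 257, 179.6 and 200.1 CPM in WT and 194, 202, 202 and 263 CPM in the mutant, with a log2 fold change of -0.05 (SE 0.135, adjusted p = 0.847), or -0.01 without mutant replicate 1. Its WT samples split into a higher pair (replicates 1 and 2) and a lower pair (replicates 3 and 4). The same order, with WT replicates 1 and 2 both above 3 and 4, was seen in many other chains. Among them were *Col1a1*, *Col1a2*, *Col6a1*, *Col6a2*, *Col8a2*, *Col16a1*, *Col4a1* and *Lama4*, while *Col2a1* and *Lama5* were among the chains without it. The cause of this order was not tested.

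The collagen V chains, which join collagen I fibrils and set their diameter, had negative log2 fold changes. *Col5a1* (ENSMUSG00000026837, chromosome 2 from 27886425 to 28039514, plus strand, 66 exons) was at 265, 264, 255 and 223 CPM in WT and 164, 194, 223 and 227 CPM in the mutant, where replicate 1 was the lowest. Its log2 fold change was -0.32 (SE 0.104, adjusted p = 0.0935), and -0.23 (adjusted p = 0.0582) without mutant replicate 1. *Col5a2* (ENSMUSG00000026042, chromosome 1 from 45374321 to 45503282, minus strand, 54 exons) was at 149, 135, 133 and 123 CPM in WT and 108, 139, 102 and 118 CPM in the mutant, a log2 fold change of -0.21 (SE 0.0993, adjusted p = 0.230). The collagen I chains, named here after their values were seen, had positive log2 fold changes and wide spread. *Col1a1* (ENSMUSG00000001506, chromosome 11 from 94936224 to 94953042, plus strand, 51 exons), the main chain of bone and skin collagen, was at 102, 79.3, 66.8 and 52.6 CPM in WT and 110.2, 127, 84.8 and 136 CPM in the mutant. WT replicate 1 was above mutant replicate 3, so the groups overlapped, and the log2 fold change was 0.61 (SE 0.200, adjusted p = 0.0938). Its partner *Col1a2* was at 82.4, 79.2, 57.7 and 47.8 CPM in WT and 63.7, 114, 71.4 and 88.9 CPM in the mutant, a log2 fold change of 0.34 (SE 0.212, adjusted p = 0.353), or 0.17 (adjusted p = 0.638) without mutant replicate 2 and 0.21 (adjusted p = 0.619) without WT replicate 4. The remaining fibrillar chains *Col11a1*, *Col11a2* and *Col27a1* gave log2 fold changes of -0.11, 0.22 and 0.06, at levels between 1.01 and 17.9 CPM, and without mutant replicate 1 -0.03, 0.33 and 0.20. *Col11a2* was at 0.05 (adjusted p = 0.946) without WT replicate 4 and at 0.45 (adjusted p = 0.398) without WT replicate 3. *Col11a1* was at -0.26 (adjusted p = 0.209) without mutant replicate 2.

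Among the 17 other chains none passed (0 of 17 by edgeR, with *Col13a1* and *Col22a1* at an unadjusted p under 0.05 and *Col13a1* called by DESeq2, or 11.8% of the class at an unadjusted p under 0.05 beside 25% of all genes, and 12.2% of all genes called by DESeq2), and their median log2 fold change was -0.01, or 0.08 without mutant replicate 1. *Col13a1* (ENSMUSG00000058806, chromosome 10 from 61838236 to 61979108, minus strand, 41 exons), a collagen that spans the cell membrane and is known from the neuromuscular junction, was at 36.7, 33.1, 27.2 and 26.9 CPM in WT and 15.9, 22.9, 25.1 and 23.8 CPM in the mutant. Its groups did not overlap and the log2 fold change was -0.50 (SE 0.151, adjusted p = 0.0734). Without mutant replicate 1, the lowest sample, *Col13a1* passed at -0.37 (adjusted p = 0.0426). The transmembrane chains *Col23a1* and *Col25a1* also had negative log2 fold changes, -0.26 (SE 0.120, adjusted p = 0.213) and -0.32 (SE 0.277, adjusted p = 0.523). *Col23a1* (ENSMUSG00000063564, chromosome 11 from 51289920 to 51583918, plus strand, 29 exons) was at 33.7, 38.2, 31.2 and 27.4 CPM in WT and 22.3, 28.3, 27.5 and 30.7 CPM in the mutant, with overlap.

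Collagen VI chains, which build beaded filaments around cells, all had positive log2 fold changes that did not pass: 0.37 for *Col6a1* (adjusted p = 0.233), 0.21 for *Col6a2* (0.312) and 0.42 for *Col6a3* (0.451). *Col6a2* (ENSMUSG00000020241, chromosome 10 from 76595762 to 76623630, minus strand, 28 exons) was at 39.3, 40.8, 32.4 and 30.7 CPM in WT and 39.7, 49.8, 37.5 and 38.3 CPM in the mutant, and *Col6a3* did not exceed 2.46 CPM. The groups overlapped for each of them, and *Col6a2* was at 0.11 (adjusted p = 0.551) without mutant replicate 2. Over the alternatives that kept all samples *Col6a2* ran from 0.08 to 0.22 (adjusted p from 0.173 to 0.703). The network chains *Col8a1* and *Col8a2*, known from the cornea and vessels, gave log2 fold changes of 0.35 (SE 0.168, adjusted p = 0.228) and 0.71 (SE 0.361, adjusted p = 0.258). *Col26a1* (ENSMUSG00000004415, chromosome 5 from 136741759 to 136883209, minus strand, 13 exons) was at 27.04, 26.1, 19.1 and 20.5 CPM in WT and 16.2, 27.7, 23.3 and 24.6 CPM in the mutant, a log2 fold change of -0.01 (SE 0.168, adjusted p = 0.971). FACIT chains, which decorate fibrils, had log2 fold changes from -0.38 for *Col22a1* (adjusted p = 0.187) to 0.50 for *Col16a1* (0.215). Between these values lay *Col9a1* (-0.25), *Col12a1* (-0.15), *Col9a3* (-0.10), *Col9a2* (0.05) and *Col14a1* (0.26). *Col22a1* passed without mutant replicate 3, at -0.57 (adjusted p = 0.0296). *Col12a1* was at -0.06 (adjusted p = 0.830) without mutant replicate 4 and at -0.08 (adjusted p = 0.790) without WT replicate 3. *Col12a1* passed without mutant replicate 1, at -0.29 (adjusted p = 0.0417), and in that fit the log2 fold change was -0.13 for *Col9a1*, 0.10 for *Col9a3*, 0.08 for *Col14a1*, -0.14 for *Col25a1*, 0.12 for *Col26a1* and 0.22 for *Col6a3*. The anchoring-fibril chain *Col7a1* gave a log2 fold change of -0.12 (SE 0.125, adjusted p = 0.599), or -0.08 without that sample.

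Levels of chains were compared with each other per kilobase of the transcript that holds this longest coding sequence. In WT, the highest basement-membrane chains were *Col4a1* at 146 ± 11.1, *Col18a1* at 108 ± 6.32, *Col4a2* at 91.1 ± 6.95 and *Lamc1* at 64.9 ± 5.93 CPM per kb (SD, n = 4). *Lamb1*, at 63.8 ± 4.07, differed from *Lamc1* by less than their spread. The highest fibrillar chains were *Col2a1* at 169 ± 5.996, *Col3a1* at 40.2 ± 7.13, *Col5a1* at 30.0 ± 2.36 and *Col5a2* at 20.4 ± 1.63 CPM per kb. The gap between *Col2a1* and *Col3a1* was far wider than their SDs. Other chains were lower, led by *Col13a1* at 9.79 ± 1.502, *Col6a2* at 9.06 ± 1.27, *Col26a1* at 8.52 ± 1.44 and *Col23a1* at 5.77 ± 0.796 CPM per kb, of which the first 3 differed by less than the SD of *Col13a1*. In the mutant basement-membrane chains were led again by *Col4a1* at 129.7 ± 5.22, *Col18a1* at 100.3 ± 7.62 and *Col4a2* at 82.0 ± 3.01 CPM per kb, and *Col13a1* was at 6.93 ± 1.31, below *Col6a2* at 10.5 ± 1.45 and *Col26a1* at 8.42 ± 1.79.

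**Figure D3:**
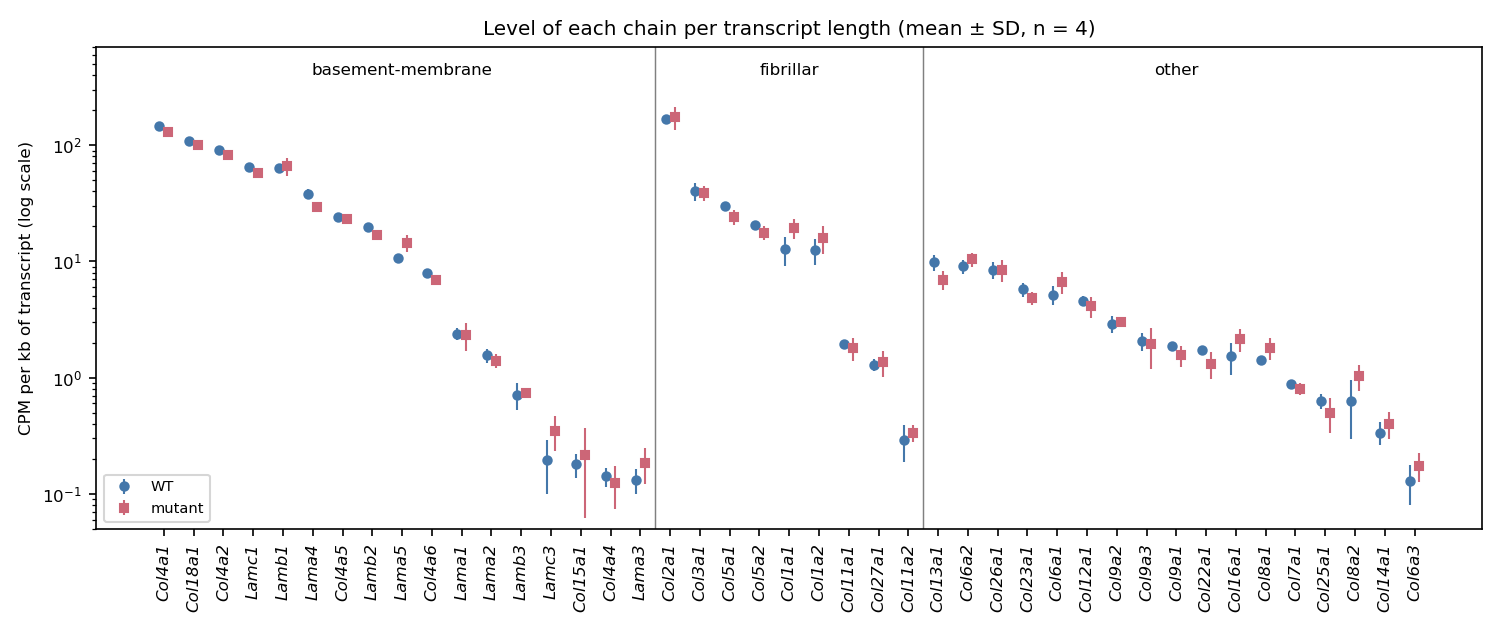
Mean level per kilobase of transcript with SD of 4 samples (vertical axis, log scale) for the chains reported here in WT (circles) and mutant (squares), ordered by WT level within each class. Levels span from *Col2a1* at 169 to *Col6a3* at 0.130 CPM per kb in WT, and circles and squares lie close for most chains.

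*Lama4* took a smaller share of the laminin alpha chains in every mutant sample than in any WT sample. Per transcript length, *Lama4* made up 72.0% ± 2.47 of the summed level of the 5 alpha chains in WT and 61.9% ± 5.26 in the mutant (SD, n = 4). *Lama5* made up 20.3% ± 1.87 and 30.0% ± 4.10, and *Lama1*, *Lama2* and *Lama3* together the small remainder. The ratio of *Lama5* to *Lama4* per length was 0.258, 0.264, 0.337 and 0.271 in WT and 0.442, 0.657, 0.479 and 0.392 in the mutant, without overlap. Every mutant sample, replicate 1 included, lay above the highest WT sample, replicate 3. These ratios restate the 2 chains that passed and were given no test of their own. For the beta chains, the ratio of *Lamb2* to *Lamb1* was 0.312 ± 0.0199 (SD, n = 4) in WT and 0.260 ± 0.0604 (SD, n = 4) in the mutant, with overlap, and its lowest value, 0.178, was in mutant replicate 1. *Lamb1* to *Lamc1* stood at 0.985 ± 0.0479 (SD, n = 4) in WT and 1.14 ± 0.194 (SD, n = 4) in the mutant, where replicate 1 reached 1.43.

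Ratios within collagen pairs were also computed. *Col4a1* to *Col4a2* was nearly fixed, at 1.61, 1.61, 1.61 and 1.61 in WT and 1.59, 1.58, 1.58 and 1.57 in the mutant, although the level of each chain varied among samples. The SD over samples was 0.00144 in WT and 0.00941 in the mutant, against an SD from counting of 0.0229 and 0.0244, which is that of a single sample. The values of the groups did not overlap, and the ratio was given no test. *Col4a5* to *Col4a6*, the pair on the X chromosome, was 3.05 ± 0.116 (SD, n = 4) in WT and 3.35 ± 0.0952 (SD, n = 4) in the mutant, also without overlap and with an SD from counting of 0.133 and 0.157. *Col1a1* to *Col1a2* ran from 0.903 to 1.12 in WT and from 1.001 to 1.56 in the mutant, with overlap. *Col5a1* to *Col5a2* was 1.47 ± 0.0665 (SD, n = 4) in WT and 1.38 ± 0.290 (SD, n = 4) in the mutant. *Col6a1* to *Col6a2* was 0.569 ± 0.0454 (SD, n = 4) in WT and 0.638 ± 0.101 (SD, n = 4) in the mutant, and the groups of both pairs overlapped.

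**Figure D4:**
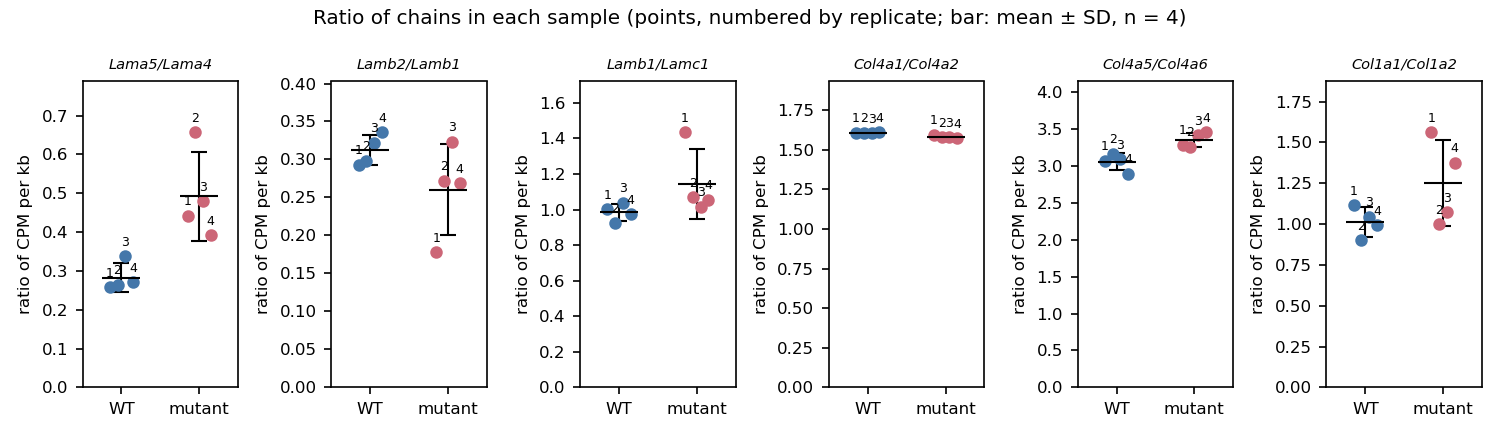
Ratio of the level per kilobase of 6 pairs of chains (vertical axes, from 0) in each WT (blue) and mutant (red) sample, numbered by replicate, with mean and SD of 4 samples. *Lama5* to *Lama4* lies between 0.258 and 0.337 in WT and between 0.392 and 0.657 in the mutant, and *Col4a1* to *Col4a2* shows almost no spread.

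The genes that fold, cut, cross-link, bind and degrade these chains were read from the same fit as 6 lists, and each value given for them in brackets or without a unit is a log2 fold change, followed by its adjusted p. The share of all genes that passed, 8.62%, is the background for the counts of each list, which ran from 0% to 7.69% of the members, as 25% and 12.2% are for an unadjusted p under 0.05 and for DESeq2. For genes that passed only without mutant replicate 1, the background is the 17.2% of all genes that passed in that fit. Hypoxia and stress genes summed highest in mutant replicate 1, at 6765 CPM against 4874 to 5094 CPM in the other mutant samples, and their part in the values that move with that sample was not tested. Among enzymes that fold and modify collagen, 0 of 19 passed (3 at an unadjusted p under 0.05, 0 by DESeq2), and the lowest adjusted p belonged to *P4ha2*, *Plod2*, *P3h1* and *P4ha3*, hydroxylases of proline or lysine. *P4ha2* stood at 224, 86.7, 59.6 and 60.5 CPM in the mutant against 45.9, 45.2, 68.0 and 43.5 CPM in WT, a log2 fold change of 1.09 (SE 0.400, adjusted p = 0.127) that was 0.45 (adjusted p = 0.0974) without mutant replicate 1. *Plod2* gave 0.65 (SE 0.262, adjusted p = 0.158), or 0.28 (adjusted p = 0.144) without mutant replicate 1, *P3h1* 0.13 (SE 0.0583, adjusted p = 0.195) and *P4ha3* 0.49 (SE 0.236, adjusted p = 0.231). Among processing and cross-linking enzymes, 0 of 13 passed (2 at an unadjusted p under 0.05, 1 by DESeq2, *Lox*). Their lowest adjusted p belonged to *Lox*, a lysyl oxidase, with 2.02 (SE 0.714, adjusted p = 0.112) at 7.21 CPM in mutant replicate 1 and at most 1.45 CPM elsewhere, or 0.89 (adjusted p = 0.154) without it. *Loxl2* gave 0.34 (SE 0.130, adjusted p = 0.140), *Pxdn*, which cross-links collagen IV, -0.13 (SE 0.0684, adjusted p = 0.277) and *Pcolce* 0.20 (SE 0.119, adjusted p = 0.320). Without mutant replicate 1 these were 0.19 (adjusted p = 0.119) for *Loxl2*, -0.08 (adjusted p = 0.325) for *Pxdn* and 0.32 (adjusted p = 0.00531) for *Pcolce*, which then passed.

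Of 14 basement-membrane partners, 1 passed, with 5 (35.7%) at an unadjusted p under 0.05 and 1 called by DESeq2. The gene that passed, *Tinagl1*, a matrix protein related to nephritis antigen, was at 49.1, 53.7, 52.3 and 49.9 CPM in WT and 122, 88.6, 83.5 and 85.3 CPM in the mutant. It rose by 0.89 (SE 0.117, adjusted p = 0.00273) on the log2 scale, and by 0.74 (adjusted p = 6.39e-05) without mutant replicate 1. *Frem1* (-0.34, adjusted p = 0.105), *Smoc1* (-0.51, 0.111) and the integrin ligand *Npnt* (-0.27, 0.158, or -0.17 (adjusted p = 0.112) without mutant replicate 1) did not pass. Of 13 fibril-associated partners, 1 passed, with 4 (30.8%) at an unadjusted p under 0.05 and 2 called by DESeq2 (*Tnc* and *Fbn2*). The gene that passed, *Tnc*, the cell-adhesion modulator tenascin-C, was at 141, 156, 181 and 166 CPM in WT and 88.3, 86.3, 133 and 111 CPM in the mutant, a log2 fold change of -0.62 (SE 0.139, adjusted p = 0.0251). Its call was lost without WT replicate 2, 3 or 4 or mutant replicate 4 (adjusted p = 0.0593, 0.0802, 0.0751 and 0.0563), with adjusted p from 0.000541 to 0.0802 over the 18 alternatives. *Fbn2* (-0.28, 0.0703), *Fbln2* (0.50, 0.137) and *Thbs1* (0.69, 0.175) did not pass by edgeR. With mutant replicate 1 left out, *Thbs1* was at 0.24 (adjusted p = 0.128) and *Fbln2* passed at 0.60 (adjusted p = 0.0347).

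Of 14 receptors, 1 passed, with 4 (28.6%) at an unadjusted p under 0.05 and 1 called by DESeq2. The gene that passed, *Itga6*, the alpha subunit of laminin-binding integrins, was at 421, 404, 484 and 397 CPM in WT and 211, 254, 243 and 201 CPM in the mutant. All its mutant values lay far below the WT values, and the log2 fold change was -0.91 (SE 0.0909, adjusted p = 0.00152), or -0.87 (adjusted p = 0.000366) without mutant replicate 1. The collagen-binding receptor kinases *Ddr2* (0.84, adjusted p = 0.0817) and *Ddr1* (0.35, 0.129) and the common integrin subunit *Itgb1* (-0.17, 0.142) did not pass, and *Ddr1* and *Itgb1* passed without mutant replicate 1 at 0.47 (adjusted p = 0.00266) and -0.19 (adjusted p = 0.0428). Among 13 matrix proteases and inhibitors, 0 passed (1 at an unadjusted p under 0.05, 0 by DESeq2), and *Mmp23* (0.45, 0.113), *Timp3* (0.20, 0.362), *Mmp14* (-0.20, 0.410) and *Adamts5* (-0.24, 0.639) came first. Leaving out mutant replicate 1, *Mmp23* passed at 0.52 (adjusted p = 0.0391), while *Timp3* was at 0.08 (adjusted p = 0.598), *Mmp14* at -0.06 (adjusted p = 0.498) and *Adamts5* at -0.10 (adjusted p = 0.835). Over the 6 lists, medians of the log2 fold change lay between 0.02 and 0.17, beside -0.0013 over all genes.

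**Figure D5:**
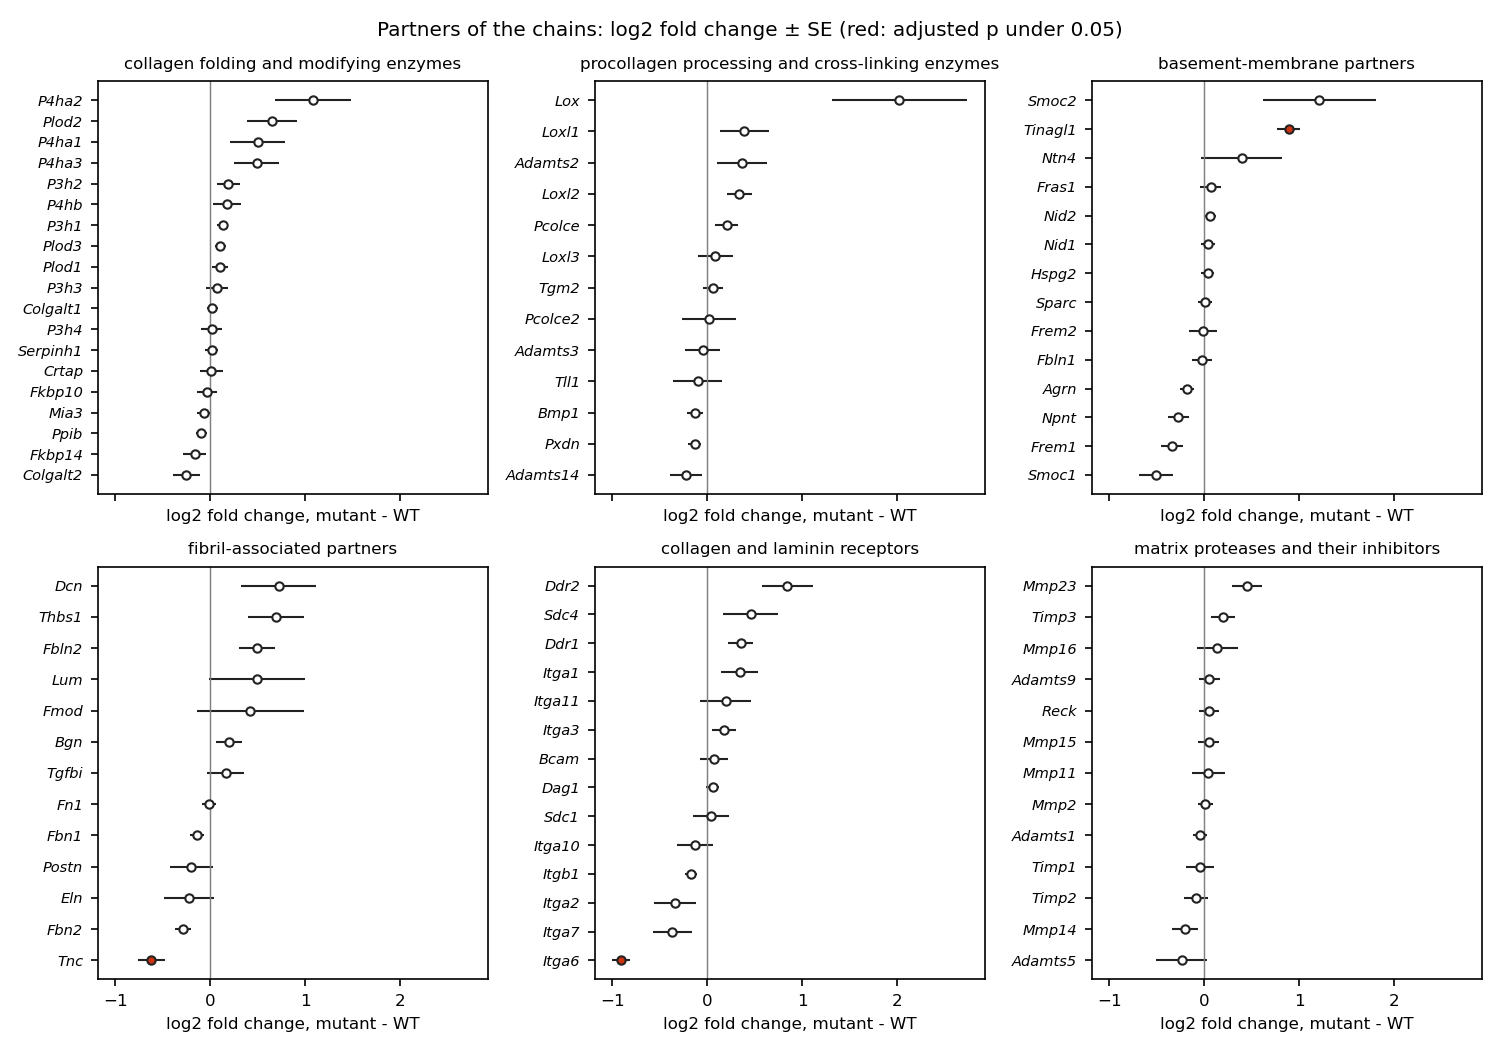
Log2 fold change of mutant against WT (horizontal axes) with its standard error for the tested genes of 6 lists of partners of the chains, with adjusted p under 0.05 in red. *Tinagl1* at 0.89, *Tnc* at -0.62 and *Itga6* at -0.91 are in red, while *Lox* at 2.02 has the widest bar.

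The count limit left 11 of the 55 symbols outside. Nearest to it were *Col17a1* and *Col20a1*, which reached 10 and 11 counts in 1 sample each. Just inside were *Col15a1*, with 10 counts or more in 6 samples and 5 to 31 counts over all samples, and *Col4a4*, *Col25a1* and *Lamc3*, with that many in 7 samples. *Col15a1* gave a log2 fold change of 0.29 (SE 0.463, adjusted p = 0.746). The chains left out otherwise were *Col4a3*, *Col5a3* and *Col24a1*, with at most 9, 6 and 6 counts, and *Col6a4*, *Col6a5*, *Col6a6*, *Col10a1*, *Col19a1* and *Col28a1*, with at most 5. All 44 members also passed the filter on low counts that preceded the test.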

How the data were processed

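RNA-seq libraries of polyadenylated RNA were made with NEBNext Ultra and read as single reads. The authors deposited 1 table of expected counts per gene, estimated by RSEM 1.3.1 after cutadapt on GRCm38 according to the submitters' processing notes, without scaling for depth or length. The name of the deposited table puts the number 91 after GRCm38 without naming an annotation. The aligner and the use of strand are not given in the sources used here, and expected counts share reads of similar genes among them.

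Expected counts were rounded to whole numbers, and 53274 of 53465 genes were given a symbol. Genotypes were compared over the 8 samples in edgeR 4.0.16 (R 4.3.3), with 14451 genes kept by filterByExpr (grouped by genotype), TMM factors, the quasi-likelihood test and Benjamini-Hochberg adjustment over all genes tested at a threshold of 0.05. The SE of a log2 fold change is its size divided by the square root of F. CPM values are TMM-normalized, and intervals from counting cover counting error only. No replicate pair agreed within sampling noise (the lowest chi-square per degree of freedom was 3.95), and every sample entered as 1 replicate. Lengths and GC content come from GENCODE M21, promoters from RefSeq, and figures were drawn with Python 3.11.15.

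The text names *Nrg1*, each chain that passed, the 4 chains of each class with the highest level per length, the partner chains in a trimer, and the 4 partners of each list with the lowest adjusted p. Other chains were named after their values were seen, and 1 chain, though counted in the totals, is not reported here. Members and lists were chosen with earlier results of these data known. The alternatives tried were other normalizations, other low-count filters, leaving out hemoglobin and mitochondrial genes, a block for the replicate number, leaving out each sample in turn, DESeq2 1.42.0 and voom (limma 3.58.1). An offset for GC content and transcript length was added after seeing the data.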

Additional observations from a re-analysis of the deposited data

Results flagged for a closer look

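In groups of 4 samples, the gap between the most extreme sample and its neighbour was compared with the range of the group (Dixon's ratio, read at the 95% level). Of 180 groups examined, 12 were above it, where chance gives about 1 in 20 (9 of 180), and the extreme sample was mutant replicate 1 in 7 of the 12. Among the chains, the mutant samples of *Col3a1* had a ratio of 0.884, with replicate 4 at 263 CPM and the others between 194 and 202 CPM. The ratio of *Lama5* to *Lama4* had 0.835 in WT, with replicate 3 at 0.337 and the others between 0.258 and 0.271. *Lamb1* to *Lamc1* had 0.870 in the mutant, with replicate 1 at 1.43 and the others between 1.02 and 1.07.

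Among the partners, mutant replicate 1 was far above the other mutant samples for *P4ha2* (0.835, at 224 CPM), *Lox* (0.898, at 7.21 CPM), *Tinagl1* (0.868, at 122 CPM) and *Thbs1* (0.884, at 260.1 CPM). It also led the sums of megakaryocyte markers (0.937, at 219.9 CPM) and of hypoxia and stress markers (0.884, at 6765 CPM). WT replicate 3 was far above the other WT samples for *P4ha2* (0.903, at 68.0 CPM), *Plod2* (0.845, at 89.7 CPM) and *Loxl2* (0.889, at 355 CPM). No cause of these values was tested.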

How the results depend on the processing

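The median log2 fold change of the basement-membrane chains was negative under every alternative, including collagens XV and XVIII counted as other chains. The median log2 fold change of the fibrillar chains was -0.06 with an offset for GC content and length (-0.08 with the replicate block as well) and positive under the alternatives that kept all samples without that offset. No normalization moved the median of all genes by more than 0.1. Numbers of genes that passed did move. Of the 44 chains, 2 passed with DESeq2's size factors, limma-voom, a stricter filter or removal of hemoglobin and mitochondrial genes, as in the report. With upper-quartile normalization, where 8.92% of all genes passed, 1 chain passed (*Lama4*), with 0 higher and 1 basement-membrane chain. With DESeq2's own test, which called 12.2% of all genes, 6 passed (2 higher, 4 lower; 2 fibrillar and 1 other chain): *Lama4*, *Lama5*, *Lamb2*, *Col1a1*, *Col5a1* and *Col13a1*. It also called 1 processing enzyme (*Lox*), 2 fibril-associated partners (*Tnc* and *Fbn2*) and 5 partners over all lists. Without a filter on low counts, where 4.07% of all genes passed, 4 chains did (2 higher, 2 lower; 1 fibrillar, 1 other), *Col1a1* and *Col13a1* beside *Lama4* and *Lama5*. With the offset for GC content and length, where 7.83% of all genes passed, 6 chains did, 0 higher and 6 lower (4 basement-membrane, 1 fibrillar, 1 other): *Lama4*, *Lamb2*, *Col4a1*, *Col18a1*, *Col5a1* and *Col13a1*, with 2 basement-membrane partners, 2 fibril-associated partners and 5 partners over all lists. Under this offset the log2 fold change turned negative for *Lamb3* (-0.0237), *Col27a1* (-0.0571), *Col2a1* (-0.117) and *Col9a2* (-0.116). The cause of these shifts was not tested.

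The labels number samples 1 to 4 in each genotype, and samples of the same number did not deviate together (correlations from -0.0911 to 0.0187, and 0 of 4 samples correlated best with their own number), so they were not taken as pairs. With the replicate block 619 genes passed (399 higher, 220 lower), or 4.28% of those tested. Of the chains 1 passed, *Lama5*, a basement-membrane chain, with 0 lower, while *Lama4* kept its value of -0.37 at an adjusted p of 0.0679. With the replicate block and the offset together, 546 genes (317 higher, 229 lower), or 3.78% of those tested, and 1 chain passed, *Lamb2*, a basement-membrane chain, with 0 higher (adjusted p = 0.0603 for *Lama4* and 0.122 for *Lama5*), and the log2 fold changes of *Lamb3* (-0.0033), *Col27a1* (-0.0686), *Col2a1* (-0.127) and *Col9a2* (-0.105) were negative.

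With each sample left out in turn, 509 to 2521 genes passed (335 to 1352 higher, 174 to 1169 lower), fewest without WT replicate 1 and most without mutant replicate 1. Chains that passed ranged from 0 to 6 (0 to 1 higher, 0 to 5 lower), 0 of them without WT replicate 1 or 2 and 6 without mutant replicate 1. The share of all genes tested that passed was 3.47% without WT replicate 1, 4.81% without WT replicate 2 and 17.2% without mutant replicate 1. Basement-membrane chains ranged from 0 to 4, other chains from 0 to 2, processing enzymes from 0 to 2, fibril-associated partners from 0 to 2, receptors from 1 to 3, proteases and inhibitors from 0 to 1, and partners over all lists from 2 to 9. The log2 fold change changed sign among these fits for *Col15a1* -0.307 to 0.551, *Col26a1* -0.109 to 0.118, *Col27a1* -0.0714 to 0.197, *Col2a1* -0.0863 to 0.171, *Col3a1* -0.163 to 0.0210, *Col4a4* -0.416 to 0.0236, *Col9a2* -0.0347 to 0.121, *Col9a3* -0.346 to 0.0987, *Lama1* -0.226 to 0.0795, *Lamb1* -0.0708 to 0.120 and *Lamb3* -0.0931 to 0.222, none of which passed in the report. For 28 of the 44 chains, not *Lama4* or *Lama5*, it moved by over 1.5 times or turned sign without at least 1 of the samples. Medians ranged from -0.10 to 0.0063 over all chains, -0.17 to -0.06 over basement-membrane chains, -0.02 to 0.17 over fibrillar chains and -0.07 to 0.08 over other chains. Depth limits the chains of few counts, such as *Col15a1* with 5 to 31 counts.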
